A study of Mus musculus with 4 samples.

Results

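Inflamed alveolar macrophages are described here as the lung macrophages that combined the gene set of the resident alveolar macrophage with RNA of Cfb, Cxcl9 and Ly6i. They were chosen cell by cell. UMIs (unique molecular identifiers) stand for 1 captured RNA molecule each. A barcode with 200 or more genes, and with no more than 10% of its UMIs from mitochondrial genes, was taken as an alveolar macrophage when at least 3 of the 6 genes Ear1, Car4, Krt79, Fabp1, Plet1 and Marco had a UMI, S100a8 and S100a9 together made up less than 2% of its UMIs, and Cd79a and Cd3e had none. It was called inflamed when Cfb, Cxcl9 and Ly6i summed to at least 4 UMIs, and low when they summed to at most 1; sums of 2 to 3 are called intermediate. In all, 451 of the 19126 barcodes were inflamed, 323 of 9024 in the WT-labelled library and 128 of 10102 in the KO-labelled library. The low cells numbered 471 and 338, and the intermediate cells 183 and 108, of 977 and 574 alveolar macrophages.

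The study compared wild-type C57B6/J mice with Plaur–/– mice, which lack the urokinase receptor uPAR, in an allergic airway model. Mice of both genotypes, 8 of each per the design, were sensitized with LPS and ovalbumin (OVA) on days 0 and 7 and were given aerosolized OVA on day 14, so that the WT group is a challenged group too and no unchallenged lung was compared here. Lungs were digested and CD45.2+ leukocytes were sorted for droplet sequencing of 3′ RNA ends together with tags on 5 antibodies. Each genotype was 1 library. How many mice were pooled in it, and which stretch of Plaur is deleted, the sources used here do not give. The labels call the sorted cells circulating leukocytes in one place and a total lung lysate in another. With 1 library for each genotype no difference between genotypes could be tested. Intervals given here are exact 95% intervals that cover counting error only, not the spread between mice.

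Alveolar macrophages are long-lived phagocytes of the air spaces that clear surfactant and inhaled material and depend on the lipid-handling regulator PPARγ. When they meet interferon-γ from lymphocytes or NK cells, they turn on guanylate-binding proteins, antigen presentation genes and the chemokines Cxcl9 and Cxcl10, which attract T cells through CXCR3. Microbial products such as LPS act through NF-κB on cytokines, complement genes and neutrophil-attracting chemokines. Cfb (complement factor B) is a protease of the alternative complement pathway, and Ly6i is a member of the Ly6 family of small surface proteins.

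The proximal promoters of 3 of the interferon-response genes that stood highest in the inflamed cells are shown to make visible which regulatory letters they hold. Each is the 250 bases before the start in RefSeq (GRCm38.p6), read 5′ to 3′ on the gene's strand, and capitals mark motif matches. The motifs were searched on both strands, with N for any base. The interferon-γ activated site GAS was TTC and GAA with NNN between them. The core of the interferon-stimulated response element ISRE was GAAA and GAAA with NN between them, and the NF-κB motif was GGGA and TTCC with NN between them.
Gbp5, chr3:142496684-142496933, plus strand: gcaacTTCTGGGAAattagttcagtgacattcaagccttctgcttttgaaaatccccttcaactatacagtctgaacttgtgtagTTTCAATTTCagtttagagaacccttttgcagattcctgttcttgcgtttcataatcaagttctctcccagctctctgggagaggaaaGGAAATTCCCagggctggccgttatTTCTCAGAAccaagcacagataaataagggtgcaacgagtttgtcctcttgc
Gbp2, chr3:142620413-142620662, plus strand: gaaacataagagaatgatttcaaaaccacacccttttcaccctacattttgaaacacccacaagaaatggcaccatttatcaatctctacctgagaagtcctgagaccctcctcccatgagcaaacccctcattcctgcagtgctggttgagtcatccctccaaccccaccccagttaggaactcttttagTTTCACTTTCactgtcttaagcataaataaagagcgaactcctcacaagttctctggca
Cxcl10, chr5:92348890-92349139, minus strand: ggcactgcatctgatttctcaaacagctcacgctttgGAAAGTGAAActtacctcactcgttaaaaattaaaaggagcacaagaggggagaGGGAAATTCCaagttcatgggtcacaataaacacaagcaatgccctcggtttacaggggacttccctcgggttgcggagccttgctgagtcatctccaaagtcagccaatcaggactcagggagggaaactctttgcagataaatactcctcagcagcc
Gbp5 held GAS matches at 245 to 237 and at 52 to 44 bases before the start, an ISRE core at 165 to 156 and an NF-κB match at 77 to 68. Gbp2 held 1 ISRE core at 59 to 50, and Cxcl10 an ISRE core at 213 to 204 and an NF-κB match at 159 to 150. No match of the 3 motifs was found in this window of Cxcl9. Over all 32851 RefSeq promoters in the table, windows of this length held a GAS match in 7.02%, an ISRE core in 2.98% and the NF-κB motif in 1.21%. Of the 14 genes named below as highest in inflamed cells, 13 had a promoter in the table. A GAS match was in 4 of these (Gbp5, Ifit2, Serpina3f and Serpina3g), an ISRE core in 8 (Calhm6, Cxcl10, Gbp2, Gbp5, Ifi205, Ifit1, Saa3 and Slamf8) and an NF-κB match in 3 (Cxcl10, Gbp5 and Ifit2). The GAS and NF-κB matches of Ifit2 overlap. They lie in the first promoter listed for Ifit2, which was the one counted, and another listed start of the gene held none of the 3 motifs. Among the 8 genes named as lowest, 5 had a promoter and none of the 3 motifs was in them. A match describes letters, not binding.

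The inflamed libraries rested on 3116582 gene UMIs in WT-labelled and 1082700 in KO-labelled cells, of 42913843 and 47442215 over all barcodes. Inflamed cells were deeper than low cells, with a median of 9114 against 7013 UMIs in the WT-labelled library and 8215.5 against 6154.5 in the KO-labelled library. Levels below are therefore CPM, the UMIs of a gene divided by all gene UMIs of the group's cells and scaled to 1000000. Plaur stood at 318 CPM in WT-labelled and 108 CPM in KO-labelled inflamed cells, a log2 ratio of -1.56 (interval -1.85 to -1.28). Plaur RNA was thus still counted in the KO-labelled library, and in its B cells it stood at 328 CPM, against 282 CPM in WT-labelled B cells. A 3′ tag may lie outside the deleted stretch, so these values do not check the genotype label. The libraries shared 16 barcode sequences, of which 1 was an inflamed cell of the KO-labelled library.

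The alveolar macrophage label was checked with markers that the rule did not use. The 8 others fixed for this purpose (Siglecf, Chil3, Fabp4, Ear2, Cidec, Lpl, Pparg and Krt19) summed to 19367 CPM in WT-labelled and 21657 CPM in KO-labelled inflamed cells. In low cells they summed to 18199 and 20000 CPM, and over all filtered barcodes to 4079.6 and 2357 CPM. The summed level of these markers in inflamed cells was thus close to that of low cells. A sum does not speak for each member: Krt19 had log2 ratios of -1.42 and -1.64 over low cells, as given below. Of the genes that the rule did use, Marco, a scavenger receptor, stood at 349 against 355 CPM in WT-labelled inflamed and low cells, and Fabp1, a fatty acid-binding protein, at 190 against 446 CPM.

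Most inflamed cells were chosen through Cfb. It was found in 321 WT-labelled members (99.4%) and 124 KO-labelled members (96.9%). Cxcl9 was found in 185 (57.3%) and 73 (57.0%), and Ly6i in 71 (22%) and 17 (13.3%). Cfb without either of the others picked 128 and 53 cells, and all 3 genes together were present in 60 and 14. The label by Cfb and Cxcl9 therefore covers cells with and without Cxcl9. For comparison, Cfb was found in 1.23% and 0.768% of B cells and Cxcl9 in 2.22% and 2.31%, at median depths of 2467 and 2264 UMIs.

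Levels of the selecting genes are given as a description, since they define the groups. Cfb stood at 793, 288 and 52.4 CPM in inflamed, intermediate and low cells of the WT-labelled library and at 619, 276 and 57.6 CPM in those of the KO-labelled library. Cxcl9 stood at 1494, 16.5 and 6.85 CPM, and at 1326, 33.1 and 5.71 CPM. Cxcl9 was not particular to these cells: macrophages with C1q genes held 1484 CPM in WT-labelled and 1757 CPM in KO-labelled cells.

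The boundary at 4 UMIs cut through a continuous range. Cells with a sum of 3 numbered 84 and 31, and cells with a sum of 4 numbered 56 and 25. Just outside the limit Gbp2 stood at 57.6 and 102.7 CPM in the WT-labelled and KO-labelled library, and just inside it at 62.2 and 61.5 CPM. Ch25h stood at 312.7 and 351.0 CPM outside and at 444.6 and 539.5 CPM inside.

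**Figure D1:**
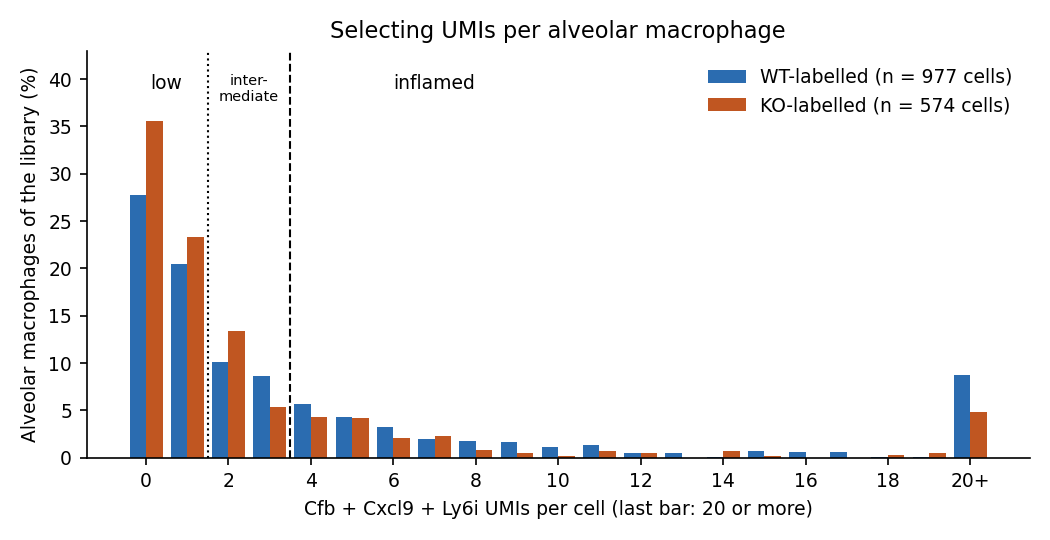
Percent of each library's alveolar macrophages (y axis, 977 WT-labelled and 574 KO-labelled cells) by the summed UMIs of Cfb, Cxcl9 and Ly6i in a cell (x axis, the last bars holding sums of 20 or more), with lines at the limits of the low, intermediate and inflamed groups. The bars run on without a gap across the limit of 4 UMIs, and 85 WT-labelled and 28 KO-labelled cells reach 20 or more.

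A smaller part of the alveolar macrophages was inflamed in the KO-labelled library. The share was 33.1% (323 of 977, interval 30.1% to 36.1%) in WT-labelled and 22.3% (128 of 574, interval 19.0% to 25.9%) in KO-labelled cells, a 0.675-fold ratio. With every cell thinned to 3000 UMIs and a sum of at least 2, which left out 33 and 47 shallower cells, the shares were 30.4% (interval 27.5% to 33.4%) and 23.3% (interval 19.8% to 27.2%). At a sum of at least 8 the shares were 17.8% and 9.41%, and at 20 or more they were 8.70% and 4.88%. The intermediate share was close in both, at 18.7% and 18.8%. Alveolar macrophages were 10.9% of the filtered WT-labelled and 5.72% of the filtered KO-labelled barcodes. With 1 library each, the difference in the inflamed share has no replicate check.

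Inflamed cells carried a broad interferon-response program that low cells of the same libraries held at much lower levels. Guanylate-binding proteins and immunity-related GTPases, which attack membranes around intracellular microbes, stood 2-fold or more higher for each of the 13 members that passed the minimum of 20 UMIs over both groups, of 19 listed, in both libraries. Their median log2 ratio was 2.61 in WT-labelled and 2.66 in KO-labelled cells. Because inflamed and low cells differ by their own Cfb, Cxcl9 and Ly6i counts, all ratios between them are descriptions without a test. A gene that passes the minimum only through the group in which it is high has to differ, so counts over the genes that passed describe those genes and not their whole list. Over all genes 3.81% of the 9849 tested were at least 2-fold higher and 4.48% at least 2-fold lower in WT-labelled inflamed cells; in the KO-labelled library 3.81% and 4.44% of 8719 were. The median log2 ratio over all genes was -0.15 and -0.10, and 3358 of 9849 and 3429 of 8719 genes were higher at any size. On TMM scaling the counts of higher against lower genes went from 375 and 441 to 454 and 307 in the WT-labelled library, and from 332 and 387 to 385 and 314 in the KO-labelled library; with DESeq2 size factors they were 464 and 294, and 388 and 303. Across both libraries 8684 genes were tested, of which 184 were at least 2-fold higher in both, 84 lower in both, and 4 and 23 past that size in opposite directions.

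Among single genes, Gbp2 stood at 425 CPM in WT-labelled inflamed and 31.3 CPM in low cells, and at 393 against 27.6 CPM in the KO-labelled library. The log2 ratios were 3.76 (interval 3.48 to 4.06) and 3.83 (interval 3.43 to 4.25). A UMI of Gbp2 was found in 62.2% and 59.4% of inflamed cells, in 17.6% and 14.2% of low cells and in 5.36% and 7.11% of B cells. Gbp5, whose promoter held the most motif matches of the 3 printed, stood at 143 against 7.74 CPM and at 139 against 9.04 CPM (log2 ratios 4.2, interval 3.63 to 4.83, and 3.94, interval 3.24 to 4.71). Iigp1, a GTPase of the immunity-related family, stood at 173 CPM in the inflamed cells of both libraries, against 5.06 and 5.71 CPM in low cells (intervals of the log2 ratio 4.40 to 5.88 and 4.08 to 5.90). Cxcl10, a second CXCR3 ligand, stood at 272 against 12.2 CPM and at 327 against 23.8 CPM. It was found in only 27.2% and 24.2% of inflamed cells, so a minority of them held this RNA. Without the cells of clusters 6 and 7, described below, its log2 ratios went from 4.47 and 3.78 to 5.51 and 5.90.

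Other genes named as highest were spread over several functions. Slamf8, a surface receptor of the SLAM family found on myeloid cells, had log2 ratios of 4.27 in WT-labelled and 4.52 in KO-labelled cells. Ifi205, a PYHIN-family protein, had 4.14 and 4.10, and Calhm6, of the calcium homeostasis modulator family, 4.27 and 4.5. The protease inhibitors Serpina3f and Serpina3g had 4.41 and 4.99, and 3.36 and 2.76. H2-M2, a non-classical class I molecule, had 4.15 and 3.75. Serpina3, Gbp, Ifit and H2 genes have near-identical relatives, and the sources used here do not say how reads shared between copies were counted. Ubd, a ubiquitin-like protein, had 26 UMIs in inflamed cells of each library and none in low cells, so it was at least 9.34-fold and at least 16.8-fold higher, with 3 counts over the low group as the floor. In each library 5 cells held nearly all of it, 25 of the 26 UMIs in WT-labelled and 26 of 26 in KO-labelled cells, and 11 of the KO-labelled UMIs lay outside clusters 6 and 7. Saa3, an acute-phase serum amyloid, had 126 and 65 UMIs against 1 UMI in each low group, with log2 ratios of 7.09 (interval 4.58 to 12.4) and 6.98 (interval 4.45 to 12.3). Few cells held Saa3: the 5 richest cells gave 109 of the 126 and 57 of the 65 UMIs.

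Type I interferon response genes passed the minimum for 41 members in WT-labelled and 35 in KO-labelled cells. Of these, 39 and 35 were higher in inflamed cells, 27 and 22 by 2-fold or more, with median log2 ratios of 1.83 and 1.13. Ifit1 and Ifit2, antiviral proteins, had ratios of 3.92 and 5.52 in the WT-labelled library and 4.80 and 4.09 in the KO-labelled library. Rsad2, the antiviral enzyme viperin, had 4.05 and 3.43. These RNAs sat in few cells, Ifit1 in 11.5% and 7.81% of the inflamed cells, and in the KO-labelled library 38 of its 43 UMIs came from 5 cells. Siglec1, a sialic acid receptor induced by interferon, had ratios of -0.19 and 0.50 with intervals that include 0 (-0.64 to 0.25 and -0.17 to 1.16).

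Of the interferon-γ pathway itself, 17 of 19 members in WT-labelled and 15 of 18 in KO-labelled cells were higher in inflamed cells, with medians of 0.95 and 0.87. Irf1, a transcription factor induced by interferon, stood at 184 against 58.7 CPM and at 150 against 51.4 CPM. Socs1, the feedback inhibitor of the pathway, had log2 ratios of 2.45 and 2.0. The receptor chain Ifngr1 stood at 95.3 against 105 CPM and at 124 against 142 CPM, with intervals of the log2 ratio that include 0 (-0.37 to 0.08 and -0.51 to 0.10). Ciita and Nlrc5, the master regulators of class II and class I genes, had ratios of 1.84 and 2.03 in the WT-labelled library and 2.32 each in the KO-labelled library.

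Antigen presentation genes stood higher as groups. All 11 and 12 class II members that passed were higher, with medians of 1.13 and 1.35, and all 21 class I members were higher in each library, with medians of 1.13 and 0.77. H2-Ab1, a class II chain, stood at 1743 against 337 CPM in WT-labelled and at 2164 against 517 CPM in KO-labelled cells. H2-Q7, a class I molecule, stood at 364 against 93.2 CPM and at 282 against 110 CPM, and Tap1, which carries peptides to class I, at 161 against 45.9 CPM and at 130 against 48.1 CPM. The chaperones Pdia3 and Calr differed least, at 0.17 to 0.43. Class II genes are also RNA of dendritic cells, B cells and interstitial macrophages, whose markers are taken up below. Without clusters 6 and 7, described below, the class II medians were 1.24 and 0.80. H2-Ab1 then had log2 ratios of 2.58 (interval 2.47 to 2.69) and 2.03 (interval 1.89 to 2.17).

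**Figure D2:**
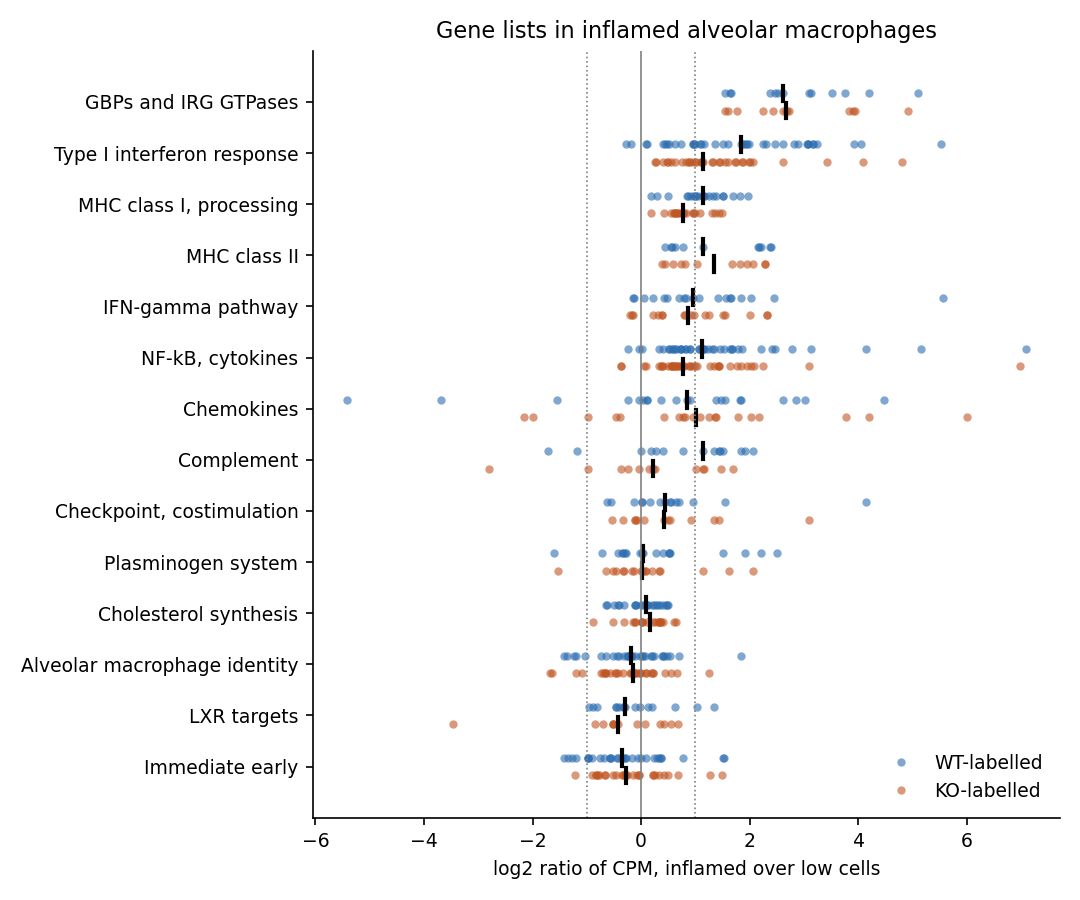
Log2 ratio of CPM, inflamed over low cells (x axis), of each gene that passed 20 UMIs (points, with a 0 entered as 0.5 UMI) by gene list (y axis) and library, with a black bar at the list's median and dotted lines at 2-fold. Guanylate-binding and immunity-related GTPases have the highest medians of the lists drawn, 2.61 and 2.66, while plasminogen and cholesterol synthesis lists lie around 0.

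NF-κB response genes, which microbial products and cytokines turn on, were higher for 40 of 42 members in WT-labelled and 39 of 41 in KO-labelled cells, 24 and 15 of them by 2-fold or more. Cd40, the co-stimulatory receptor for T cell help, stood at 52.6 against 2.98 CPM and at 76.7 against 9.04 CPM (intervals of the log2 ratio 3.23 to 5.23 and 2.35 to 3.89). Il18bp, the soluble blocker of IL-18, had ratios of 2.78 and 2.02, while Il18 itself had -0.23 and -0.37. The inflamed cells thus held more RNA of the blocker. Il18 was slightly lower on CPM, where the medians of all genes were also below 0, at -0.15 and -0.10.

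Chemokines were mixed, with 16 of 21 members higher in WT-labelled and 15 of 20 in KO-labelled cells, against 3358 of 9849 and 3429 of 8719 genes tested. Cxcl3, which attracts neutrophils through CXCR2, was the most abundant of those named, at 2681 against 331 CPM and at 2286 against 667 CPM. Its log2 ratios were 3.02 (interval 2.93 to 3.11) and 1.78 (interval 1.68 to 1.87). Cxcl16, a CXCR6 ligand, stood at 179 against 29.2 CPM and at 152 against 33.8 CPM. Ccl17, a CCR4 ligand, had log2 ratios of 1.83 and 1.38, and 2.51 and 1.72 without clusters 6 and 7, but 5 cells held 208 of its 306 UMIs in WT-labelled and 208 of 293 in KO-labelled inflamed cells.

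In the complement list 13 of 15 members in the WT-labelled but 8 of 13 in the KO-labelled library were higher. Among all genes tested, 3358 of 9849 and 3429 of 8719 were higher. C3, the central complement component that factor B acts with, stood at 559 against 134 CPM and at 487 against 177 CPM (log2 ratios 2.06, interval 1.91 to 2.21, and 1.46, interval 1.27 to 1.66). C5ar1, the receptor for the anaphylatoxin C5a, was lower, at 65.8 against 150 CPM and at 65.6 against 130 CPM. C3 and C5ar1 RNA thus lay on opposite sides of the low cells, but not every receptor gene was lower. Itgam, a receptor chain of the same list, was higher in both libraries, with values given below.

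Ch25h makes 25-hydroxycholesterol, which restrains cholesterol synthesis and activates the sterol receptor LXR. It stood at 556 CPM in inflamed and 188 CPM in low cells of the WT-labelled library, and at 600 against 347 CPM in the KO-labelled library, with log2 ratios of 1.56 (interval 1.43 to 1.70) and 0.79 (interval 0.64 to 0.95). The genes of cholesterol synthesis and uptake differed less: 14 of 23 and 14 of 20 were higher, none by 2-fold, with medians of 0.083 and 0.16. They lay slightly above all genes, of which 3358 of 9849 and 3429 of 8719 were higher, with medians of -0.15 and -0.10. LXR targets had medians of -0.30 and -0.42. Abcg1, an LXR target that exports cholesterol, stood at 699 against 1226 CPM and at 610 against 1093 CPM.

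Plasminogen system genes, the system to which uPAR belongs, had medians of 0.041 and 0.013, with 11 of 19 and 10 of 18 members higher. For all genes the medians were -0.15 and -0.10, with 3358 of 9849 and 3429 of 8719 higher. Mmp14, a membrane-bound matrix protease, was higher, at 240 against 51.8 CPM and at 186 against 44.7 CPM. Plaur did not follow the inflamed state in either library: WT-labelled inflamed, intermediate and low cells held 318, 324 and 313 CPM, and KO-labelled ones 108, 72.6 and 106 CPM.

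Genes named as lowest included Krt19 and Fabp1 of the alveolar macrophage markers. Krt19, a keratin, stood at 120 against 322 CPM and at 68.4 against 213 CPM (log2 ratios -1.42, interval -1.59 to -1.25, and -1.64, interval -2.01 to -1.28). Patj, a cell polarity scaffold, had a log2 ratio of -1.52 in both libraries (intervals -1.81 to -1.25 and -2.01 to -1.06). Lpin1, a lipid phosphatase, had -1.35 and -1.60, Acot1, a fatty acyl-CoA thioesterase, -1.78 and -2.44, and Serpinb1a, an inhibitor of neutrophil proteases, -1.40 and -1.54. Gm16168 had no UMI against 33 in the WT-labelled library, at least 10.2-fold lower, and 1 against 24 UMIs in KO-labelled cells (log2 ratio -3.63, interval -8.99 to -1.01). As a group the alveolar macrophage genes differed less than these examples, with 20 of 33 and 24 of 33 members lower and medians of -0.18 and -0.15, close to the medians of all genes. Mrc1, the mannose receptor, stood at 887 against 1477 CPM and at 1315 against 1828 CPM.

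Single genes of the oxidative stress list stood further apart than the list as a whole. Sod2, the mitochondrial superoxide dismutase, stood at 779 against 285 CPM and at 722 against 299 CPM, while the oxidative stress list had medians of 0.13 and 0.065. Msr1, a scavenger receptor, belongs to the alveolar macrophage list above and was higher, unlike the genes named there. It stood at 166 against 46.2 CPM and at 96.1 against 40.5 CPM. The immediate-early genes, which tissue digestion is known to induce, were lower for 21 of 31 and 20 of 29 members, shares near those of all genes, of which 6491 of 9849 and 5290 of 8719 were lower. Jun stood at 83.8 against 214 CPM and at 228 against 429 CPM, so that its level was higher in the KO-labelled library in both states.

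Within the inflamed cells, the amount of Cxcl9 separated a part with a strong interferon response from a part with little of it. In the WT-labelled library 138 inflamed cells had no Cxcl9 UMI, 97 had 1 to 9 and 88 had 10 or more; in the KO-labelled library 55, 38 and 35 had. Cxcl9 helped to choose the cells and the cells were split on it, so the values are a description. Gbp2 stood at 64.9, 285 and 1096 CPM in these strata of the WT-labelled and at 80.0, 164 and 1219 CPM in those of the KO-labelled library. Iigp1 stood at 12.1, 114 and 470 CPM and at 40.0, 89.4 and 507 CPM. In WT-labelled inflamed cells without Cxcl9, Gbp2 was about where the intermediate cells had it, at 59.7 CPM, and Cxcl10, at 17.4 CPM, was level with the 17.2 CPM of the intermediate cells. Between cells with 10 or more Cxcl9 UMIs and cells with none, all 13 of the GTPases that passed were at least 2-fold higher in both libraries, with medians of 2.90 and 3.04, where 4.75% of 7681 and 4.87% of 4972 tested genes were 2-fold higher and 6.2% and 7.52% 2-fold lower. Alveolar macrophage genes lay lower along the same split, for 28 of 33 and 29 of 32 members, with medians of -0.55 and -0.56 against -0.11 and -0.072 for all genes.

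Cxcl3 did not order by Cxcl9 in that way, and Ch25h did so over a narrower range. Cxcl3 stood at 331 CPM in low, 1417 in intermediate, and 2456, 2213 and 3482 CPM in the 3 inflamed strata of the WT-labelled library. In the KO-labelled library it stood at 667, 1698, 2754, 2036 and 1778 CPM, so the stratum without Cxcl9 was the highest there. Ch25h went from 188 CPM in low cells to 445, 514 and 761 CPM, and from 347 to 472, 644 and 771 CPM. H2-Ab1 stood at 866, 1453 and 3328 CPM and at 870, 3043 and 3338 CPM, all above the 337 and 517 CPM of low cells. Krt19 was lower at each step, at 174, 122 and 39.1 CPM and at 94.8, 53.7 and 40.4 CPM, and Abcg1 stood at 831, 710 and 493 CPM and at 783, 459 and 492 CPM.

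Inflamed cells without any Cxcl9 still differed from low cells. All 12 GTPases that passed were higher in both libraries, 6 and 7 of them by 2-fold or more, with medians of 0.89 and 1.18. At that size 2.12% and 2.7% of all genes were higher, and 4.34% and 6.71% were lower. NF-κB response genes had medians of 0.69 and 0.74, with 36 of 38 and 33 of 38 members higher, and all 21 class I members were higher, with medians of 0.72 and 0.41. Alveolar macrophage genes had medians of -0.0088 and 0.0086. Intermediate cells also lay above low cells for this group: all 13 and 11 GTPases that passed were higher, 6 and 4 by 2-fold or more, with medians of 0.93 and 0.87, where 1.45% and 1.47% of all genes were 2-fold higher and 2.93% and 4.12% 2-fold lower.

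**Figure D3:**
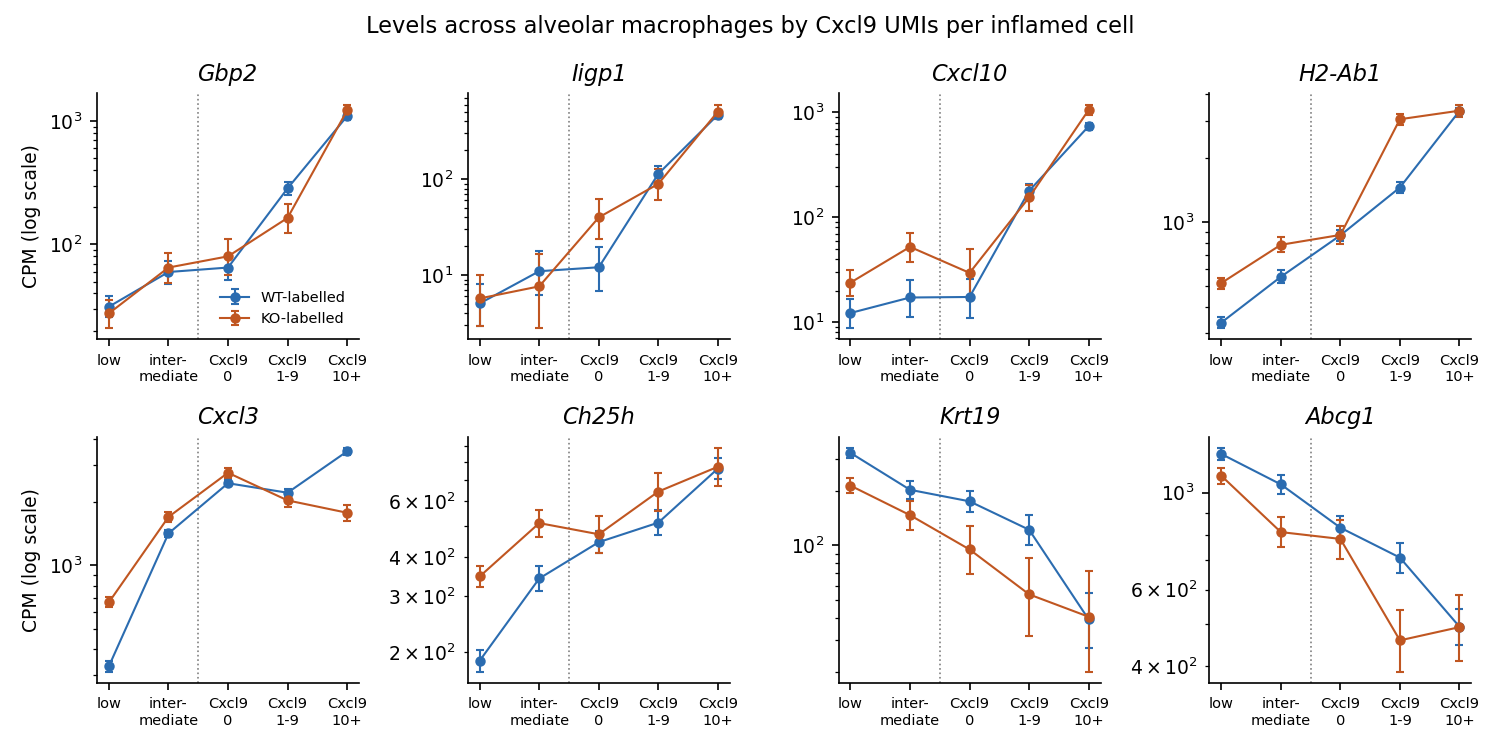
CPM (log axis) of named genes in low cells, intermediate cells and inflamed cells with 0, 1 to 9, and 10 or more Cxcl9 UMIs, with exact 95% counting intervals, for both libraries. Gbp2 climbs from 31.3 and 27.6 CPM in low cells to 1096 and 1219 CPM at the highest Cxcl9, while Cxcl3 is already at 1417 and 1698 CPM in the intermediate cells.

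A clustering of all alveolar macrophages made without Cfb, Cxcl9 and Ly6i put the inflamed cells mainly in 2 of 8 clusters. Cluster 5, led by Ifit1, Cxcl10, Rsad2, Ifit2, Gbp5 and Iigp1, held 94 WT-labelled cells, of which 93 were inflamed, and 32 KO-labelled cells, of which 29 were inflamed. Cluster 1, led by Cbln1, Gm2694, Fam20c, Cxcl3 and Inhba, held 133 inflamed of 271 WT-labelled cells (49.1%) and 53 of 197 KO-labelled cells (26.9%). Cluster 5 took 28.8% and 22.7% of the inflamed cells and cluster 1 took 41.2% and 41.4%. Cxcl9 stood at 3984 and 5218 CPM in cluster 5 and at 270 and 234 CPM in cluster 1. Low cells of cluster 1 already held Cxcl3 at 1430 and 1536 CPM and Ch25h at 533 and 685 CPM, above the 331 and 667 CPM, and the 188 and 347 CPM, of low cells as a whole.

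A smaller part of the inflamed cells carried RNA of other leukocytes. Cluster 6 was led by Gzma, Prf1 and Nkg7 of killer lymphocytes with Il2ra, Fscn1 and Mgl2, and cluster 7 by Thbs1, Hdc, Il1r2 and Mmp9. Together they held 29 of the 323 WT-labelled and 25 of the 128 KO-labelled inflamed cells. Their cells were deep, with median UMIs of 14529 and 11995.5 in cluster 6 and 12942 and 9211 in cluster 7. Scrublet called 10 WT-labelled (3.1%) and 12 KO-labelled (9.38%) inflamed cells doublets, against 15 (3.18%) and 18 (5.33%) of the low cells.

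Neutrophil, interstitial macrophage, T and NK and dendritic cell markers were lower without these clusters, while B cell and lung epithelium markers changed little. Neutrophil markers summed to 643 CPM in WT-labelled inflamed and 492 CPM in low cells, and to 1491 against 971 CPM in the KO-labelled library. Without clusters 6 and 7 they were 203 against 136 CPM and 284 against 231 CPM. Interstitial macrophage markers summed to 209 against 116 CPM and 440 against 207 CPM, and without those clusters to 72.9 against 26.8 CPM and 135 against 60.0 CPM, with C1qa, C1qb and Folr2 at 0 in the KO-labelled inflamed cells. T and NK cell markers went from 35.6 and 69.3 CPM in inflamed cells to 1.49 and 10.2 CPM. Dendritic cell markers went from 30.8 and 107 CPM to 4.83 and 2.55 CPM. B cell markers went from 43.6 and 48.0 to 39.8 and 39.5 CPM, and lung epithelium markers from 81.5 and 99.8 to 88.5 and 101 CPM. Neutrophil and interstitial macrophage markers thus stayed higher in inflamed than in low cells without clusters 6 and 7. Gbp2, Gbp5 and Iigp1 were as high without clusters 6 and 7, with log2 ratios over low cells of 3.80, 4.70 and 5.82 in WT-labelled and 4.05, 4.31 and 4.84 in KO-labelled cells. These clusters were left out after their values had been seen.

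CD11b, the integrin αM encoded by Itgam, is low on resting alveolar macrophages and was measured by an antibody tag. Its median was 9 tag UMIs in WT-labelled inflamed and 6 in low cells (quartiles 5 to 16 and 4 to 10), and 8.5 against 7 in the KO-labelled library (5 to 15 and 4.25 to 11). The groups overlapped widely. Means were 33.5 against 13.1 and 25.6 against 16.7, pulled up by single cells: 33 (10.2%) WT-labelled and 21 (16.4%) KO-labelled inflamed cells had 50 or more, against 21 (4.46%) and 30 (8.88%) of the low cells. In cluster 7 the medians were 215 and 107, and in cluster 6 46.5 and 54. Without both clusters the means were 17.4 against 9.39 and 10.2 against 8.84. The medians were then 9 against 6 in WT-labelled and 7 against 7 in KO-labelled cells, so the KO-labelled medians no longer differed. For scale, B cells had medians of 4 and 5 and macrophages with C1q genes 53 and 36. By Cxcl9 stratum the medians were 7, 10 and 13, and 8, 10 and 11. Itgam RNA stood at 37.2 against 9.83 CPM and at 39.7 against 18.1 CPM, with log2 ratios of 1.92 and 1.13, and of 2.33 (interval 1.45 to 3.33) and 1.67 (interval 0.39 to 3.0) without clusters 6 and 7. It came from few cells: 5 held 42 of the 116 UMIs in WT-labelled and 23 of the 43 in KO-labelled inflamed cells.

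The other 4 antibodies gave no difference of that kind. The median CD14 tag was 3 in inflamed and 3 in low cells of the WT-labelled library, with 2 in B cells, and 2 in all of these in the KO-labelled library. CCR3, the eotaxin receptor of eosinophils, had a median of 1 in each of these groups and ST2, the IL-33 receptor, 0. The Ly-6C tag had medians of 10, 10 and 9, and of 17.5, 17 and 17. Levels in alveolar macrophages were thus within 1 UMI of those in B cells for these tags.

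**Figure D4:**
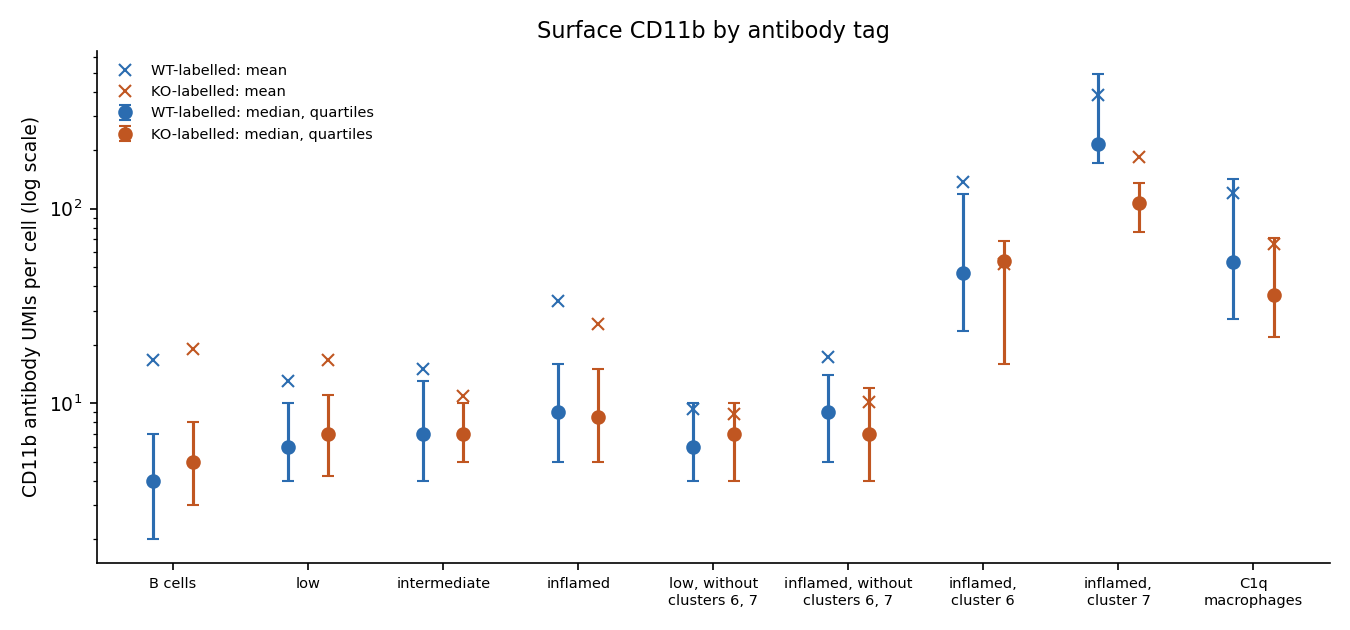
CD11b antibody tag UMIs per cell (log axis) as medians with quartiles and as means (crosses) in alveolar macrophage groups with and without clusters 6 and 7, in inflamed cells of those clusters, in B cells and in C1q macrophages of both libraries. Medians of inflamed cells, 9 and 8.5, lie above the 6 and 7 of low cells and far below the 53 and 36 of C1q macrophages. Without clusters 6 and 7 the medians are 9 against 6 in WT-labelled and 7 against 7 in KO-labelled cells.

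Between the libraries, the GTPases of inflamed cells differed little. Cells of both libraries were chosen by the same UMI sum, which includes Cxcl9, and the GTPases stood higher in inflamed cells with more Cxcl9. Levels among cells chosen in this way cannot show whether the interferon response as a whole differed between the libraries. Cxcl10, Serpina3g and Ifit1 had more per UMI in KO-labelled cells, with many of the Cxcl10 and Ifit1 UMIs in a few rich cells. Of the 14 GTPases that passed, none differed by 2-fold, 8 were higher and 6 lower in the KO-labelled library, and the median log2 ratio was 0.016. Gbp2 stood at 393 CPM in the KO-labelled and 425 CPM in the WT-labelled library (log2 ratio -0.11, interval -0.27 to 0.05), Gbp5 at 139 and 143 CPM, and Iigp1 at 173 CPM in both. Cxcl10 had a ratio of 0.27 (interval 0.09 to 0.45) and Serpina3g of 0.37 (interval 0.21 to 0.53), and in low cells these had 0.96 and 0.97. Ifit1 had 0.82 (interval 0.24 to 1.39), and 1.06 without clusters 6 and 7, with most of its KO-labelled UMIs in 5 cells as given above. For Cxcl10, 5 cells held 155 of the 354 KO-labelled and 201 of the 846 WT-labelled UMIs. With the 5 richest cells of each library left out, Cxcl10 and Ifit1 had less per UMI in KO-labelled cells, and Serpina3g still more. This trim takes a larger part of the 128 KO-labelled than of the 323 WT-labelled inflamed cells. It also kept the groups' full UMI totals, so it lowers the KO-labelled side more. Type I interferon genes had a median of 0.029, interferon-γ pathway genes 0.066, NF-κB genes -0.034 and class I genes -0.16. Over all 9052 genes tested 3.35% were at least 2-fold higher and 2.5% at least 2-fold lower in the KO-labelled inflamed cells; in low cells 1.67% and 1.87% of 9662 were. Without clusters 6 and 7 the inflamed counts went from 303 higher and 226 lower to 173 and 263. The smaller number of KO-labelled inflamed cells also gives wider counting error there.

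Class II genes were higher for 11 of 12 members in the KO-labelled library, with a median of 0.30, and in low cells for 9 of 10, with a median of 0.48. Among inflamed cells the main chains depended on clusters 6 and 7. H2-Ab1 had a log2 ratio of 0.31 over all inflamed cells and of -0.06 (interval -0.15 to 0.03) without them, H2-Aa went from 0.33 to -0.13 and H2-Eb1 from 0.60 to -0.13, while H2-DMa had 0.17 and 0.18. Immediate-early genes were higher for 26 of 30 members, with a median of 0.43, and in low cells for 24 of 31, with a median of 0.36. Jun had a ratio of 1.45, and of 1.51 without clusters 6 and 7. The oxidative stress list was lower for 14 of 17 members, with a median of -0.27. Of all genes tested, 4496 of 9052 were higher and 4556 lower in KO-labelled inflamed cells, and 4393 of 9662 were higher in low cells.

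The genes that stood highest in KO-labelled over WT-labelled inflamed cells came from few cells. Retnla, a secreted protein of type 2 inflammation, had 120 UMIs in 3 KO-labelled cells, 109 of them in 1, against 1 UMI in the WT-labelled library, and outside clusters 6 and 7 it had 0 against 1. Ccl24, the eotaxin-2 chemokine, had 47 UMIs in 3 cells against 12, and outside those clusters 0 against 1. Mgl2, a lectin of dendritic cells and macrophages, had 55 UMIs in 7 cells against 12, and none outside in either library. Lyz1, a lysozyme with a near-identical relative, had 73 UMIs, 67 of them in 1 cell, against 19, and outside 5 against 18. Tmem176a and Tmem176b had 48 and 59 UMIs against 26 and 30, and outside 1 UMI each against 1 and 3. Most UMIs behind these differences thus lay in cells of clusters 6 and 7.

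The cell cycle genes Ube2c and Top2a differed through a few cells. Outside clusters 6 and 7 their KO-labelled UMIs lay mainly in cluster 8, which was led by Pclaf, Kif11 and Rrm2 of dividing cells and held 2 WT-labelled and 5 KO-labelled inflamed cells. Ube2c, which drives exit from mitosis, had 83 UMIs in 8 cells, 40 of them in 1, against 10 (log2 ratio 4.58, interval 3.63 to 5.69), and outside clusters 6 and 7 it had 42 against 9 (4.00), 41 of the 42 in cluster 8. Top2a, a DNA topoisomerase of dividing cells, had 61 in 7 cells against 33 (2.41), and outside 48 against 29 (2.5), 47 of the 48 in cluster 8. Of the cell cycle list 21 of 23 members were higher in KO-labelled inflamed cells, 15 by 2-fold or more, while in low cells 4 of 26 were higher. Over all genes, 4496 of 9052 were higher in inflamed cells, 3.35% by 2-fold or more, and 4393 of 9662 in low cells. Against low cells of its own library the list had a median of -1.09 in WT-labelled and 0.86 in KO-labelled inflamed cells. Cells with at least 3 of 10 cycling genes numbered 6 of 323 (1.86%) and 6 of 128 (4.69%), so few cells of either library held this program.

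Among the lowest genes in KO-labelled inflamed cells, several were spread over many cells. Cav1, the main protein of caveolae, stood at 41.6 CPM in the KO-labelled and 90.2 CPM in the WT-labelled library (log2 ratio -1.12, interval -1.61 to -0.66), with -1.09 outside clusters 6 and 7 and -0.25 in low cells. Acsl1, which activates long-chain fatty acids, stood at 86.8 and 184 CPM (-1.08; -1.04 outside), with 0.046 in low cells. Slc7a11, the cystine transporter that feeds glutathione synthesis, stood at 137 and 255 CPM (-0.90, interval -1.16 to -0.65; -0.82 outside), with -0.27 in low cells. Pi4k2b, a lipid kinase, had 4 against 50 UMIs (-2.12, interval -4.05 to -0.67). Its ratio was -1.68 outside clusters 6 and 7, and -0.70 (interval -1.40 to -0.04) in low cells, so it was lower there too. Ccl22, a CCR4 ligand, had 10 against 167 UMIs, 108 of these in 1 cell, and outside those clusters 5 against 15, a ratio of 0.19.

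Apoc1 and Ptgir were nearly missing from the KO-labelled library in both states. Apoc1, an apolipoprotein, had no UMI in KO-labelled inflamed cells against 88 in WT-labelled ones, at least 10.2-fold lower, and 2 against 118 UMIs in low cells (log2 ratio -5.21, interval -8.27 to -3.32). Ptgir, the prostacyclin receptor, had 1 against 66 UMIs (-4.52, interval -9.84 to -1.99), and 3 against 47 in low cells (-3.29). Apoe had 12 against 908 UMIs, of which 744 lay in clusters 6 and 7, and 3 against 164 outside (-4.00). In low cells it had 258 against 482 UMIs (-0.23), with 243 of the 258 in 1 cell. All 3 genes lie on chromosome 7 near Plaur (mm10, chr7:24460937-24475970): Ptgir at chr7:16906490-16910905, Apoc1 at chr7:19689480-19692659 and Apoe at chr7:19696244-19701310. Within 10 Mb of Plaur 12 of 153 tested genes (7.84%) were at least 2-fold lower and 10 (6.54%) at least 2-fold higher in KO-labelled inflamed cells, against 2.44% and 3.23% of 8254 genes on other chromosomes. In low cells 5 of 166 (3.01%) were lower and 5 higher, against 1.74% and 1.66% of 8775 elsewhere. The window was chosen after the values had been seen, and DNA from the strain in which the deletion was made cannot be told apart here from the loss of Plaur.

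**Figure D5:**
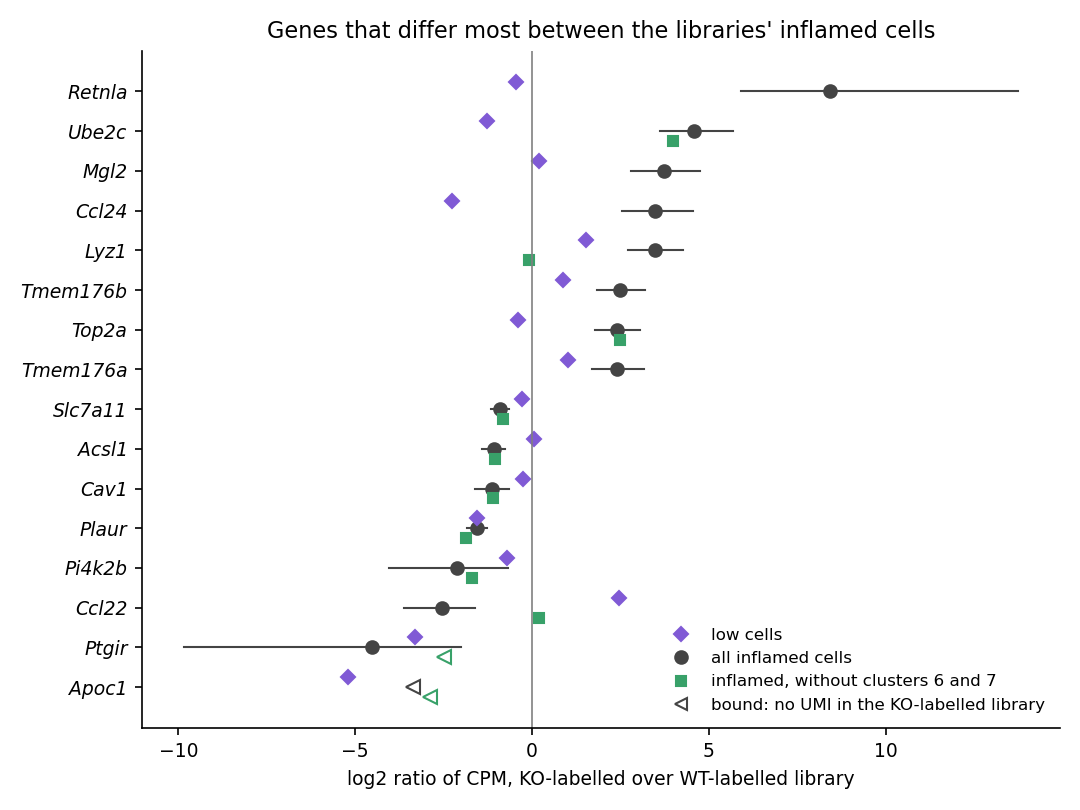
Log2 ratio of CPM, KO-labelled over WT-labelled library (x axis), for the genes named as highest and lowest in inflamed cells and for Plaur, with exact 95% counting intervals for all inflamed cells. Open triangles are bounds for genes without a KO-labelled UMI; Retnla, Mgl2, Ccl24, Tmem176a and Tmem176b have no value without clusters 6 and 7, and Cav1, Acsl1 and Slc7a11 keep theirs.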

How the data were processed

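RNA and antibody tags were counted in sorted lung leukocytes of 1 WT-labelled and 1 KO-labelled library. The deposited values are counts: whole UMIs per gene and per antibody in each barcode, made, per the file headers, by Cell Ranger version 7.0.0, against mm10 per the submitters' processing notes, which also list version 7.1.0. No value column was left without a sample.

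Inflamed, intermediate and low cells were chosen by the UMI rule given above. The cells, gene lists and rules were chosen with earlier results of these data known. UMIs were summed over the cells of a group and library and divided by the group's gene UMIs (CPM). Log2 ratios carry exact 95% intervals from the binomial share of the UMIs, and shares of cells Clopper-Pearson intervals. Intervals and floors cover counting error only. A ratio needed 20 UMIs over the groups compared, a 0 in a point ratio entered as 0.5, and a gene without UMIs in a group is given as a bound at 3 counts over the group. Genes named were the 14 highest and 8 lowest between inflamed and low cells, by the interval bound nearest 0 in the library with the smaller bound, and the 8 highest and 8 lowest between libraries, at 50 or more UMIs, plus, for each list, at most the 4 highest and the 2 lowest genes. Selecting, mitochondrial, ribosomal, immunoglobulin, T cell receptor, haemoglobin, Xist, Tsix, Y-linked and other cell types' marker genes were left out of that ranking.

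Cells were clustered on 2000 variable genes, 20 components and 15 neighbours at resolution 0.5. Doublets were called with Scrublet (expected 8%) and were kept in the main groups. The tools were scanpy 1.11.5, SciPy 1.17.1 and NumPy 2.4.6 under Python 3.11.15, with edgeR 4.0.16 for TMM and DESeq2 1.42.0 for size factors. The ratio code was tested on simulated data. Alternatives covered the limits of the rule, thinning, scaling, filters and doublets. Some named genes are not reported here.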

Additional observations from a re-analysis of the deposited data

Results flagged for a closer look

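For 9 genes the ratio of inflamed over low cells pointed up in one library and down in the other, with each counting interval away from 0. The difference between the libraries was not tested, since each genotype is 1 library. Log2 ratios are given for the WT-labelled library first. Cell cycle genes had -2.09 and 3.75 for Ube2c, -1.10 and 1.72 for Top2a, and -1.0 and 1.77 for Mki67. Genes of type 2 inflammation and of dendritic cells and macrophages had -5.35 and 3.54 for Retnla, -1.56 and 4.19 for Ccl24, -1.70 and 1.83 for Mgl2, and 2.85 and -2.16 for Ccl22. Lipid and membrane genes had 1.02 and -3.47 for Apoe, and 0.33 and -0.54 for Cav1. UMIs of Retnla, Ccl24, Mgl2, Ccl22 and Apoe lay mostly in clusters 6 and 7, as the report gives, and the part of those cells in the result was not tested beyond leaving them out. Cav1 was found in 136 WT-labelled and 29 KO-labelled inflamed cells.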

How the results depend on the processing

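No paired analysis was possible because each genotype is 1 library with no replicate. Over the alternatives, 475 results gave 7257 values, of which 6679 stayed within the main value's interval, 569 moved and 9 changed sign. These exclude gene counts, the inflamed share, CD11b ratios, and GTPase, type I interferon, class II and cholesterol synthesis medians of inflamed over low cells. Gene counts were taken as moved beyond 1.5 times the main count. A sign change was counted only where the main ratio was at least 2-fold, so those of smaller ratios are not among the 9. The alternatives without clusters 6 and 7, and without the 5 cells with most UMIs of a gene, were chosen after seeing the data. The log2 ratio of mean CD11b tags, inflamed over low, was 1.35 in WT-labelled and 0.62 in KO-labelled cells. It was 1.26 and 0.29 with S100a8 and S100a9 under 0.5%, 1.48 and 0.73 with at least 4 of 6 alveolar macrophage genes, 1.11 and 0.43 at a sum of at least 8, 0.58 and 0.28 from medians, 0.34 and 0.23 from the share of a cell's tags, 0.89 and 0.21 without clusters 6 and 7, 1.51 and 0.34 without doublet calls, and 1.16 and 0.43 without the 1% of cells with most UMIs. In the WT-labelled library it was also 1.17 with low cells at a sum of 0 and 0.92 with Cfb and Cxcl9 alone. The class II median of the KO-labelled library, 1.35, was 1.08 with the stricter S100 limit, 1.03 at a minimum of 1 or of 50 UMIs, 0.95 with 4 of 6 genes, 1.02 with low cells at 0, 0.94 with thinned cells, 0.80 without clusters 6 and 7, 0.90 without doublet calls and 1.01 without the deepest 1%. That of the WT-labelled library, 1.13, was 1.28 with DESeq2 factors, 1.26 with TMM and 1.54 at a sum of at least 8. At that sum the GTPase medians were 3.26 and 3.41, the log2 ratio of the inflamed share went from -0.57 to -0.92, and genes lower in inflamed cells numbered 844 and 866. Counts of genes at 1 or more UMI in each comparison were 2095 higher and 1540 lower in WT-labelled inflamed over low cells, 1677 and 1655 in the KO-labelled library, and 2113 and 998 for KO-labelled over WT-labelled inflamed cells. At 50 or more UMIs, 216 were lower in the WT-labelled library, 180 were higher and 136 lower in the KO-labelled library, and 104 and 57 between libraries. Genes counted as higher between libraries numbered 303, against 148 with thinned cells and 173 without clusters 6 and 7. Signs changed for Apoe in KO-labelled inflamed over low cells without doublet calls (0.81), for Ccl22 without clusters 6 and 7 (0.19 between libraries and -0.14 in the WT-labelled library), for the Ly6 family median of the KO-labelled library at 1 or more UMI (0.29), for Ubd between libraries with 4 of 6 genes (-0.88), and for Lyz1. Lyz1 had -0.072 without clusters 6 and 7 and -1.28 without its 5 richest cells between libraries, and -2.11 at a sum of at least 8 and -0.52 without doublet calls in KO-labelled inflamed over low cells. The causes were not tested. Depth limits the KO-labelled library most, since its 128 inflamed cells hold 1082700 UMIs.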
